A study of Mus musculus with 30 samples.

Results

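The SPARC family comprised 7 of the 21412 genes in the normalized count table: Sparc, Sparcl1, Spock1, Spock2, Spock3, Smoc1 and Smoc2. The members were taken by gene symbol, and the family was selected on earlier group values of these same libraries. The fold changes and p-values below therefore place each gene among all genes tested and are no independent support for its pattern. All 7 members were detected in every library and passed the filter on low values.

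SPARC proteins are matricellular, which means that they are secreted into the extracellular space and modulate how cells meet the matrix without being a structural part of it. All members carry an EC module that binds calcium. In the brain, astrocytes release SPARC and its relative hevin, the product of Sparcl1. Hevin promotes the formation of excitatory synapses, and SPARC opposes this action. The testicans, encoded by Spock1, Spock2 and Spock3, are proteoglycans made largely by neurons, and the SMOC proteins are basement membrane components that modulate signalling by bone morphogenetic proteins (BMP).

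RNA from the hippocampus of male BALB/c mice was sequenced in 30 libraries, with 1 mouse per library and 5 mice in each of 6 feeding groups. Mice received a purified feed without added methylmercury (MeHg) in the control group (Ctr), with 0.28 mg mercury per kg as MeHg in the low dose group (LD), or with 5 mg per kg in the high dose group (HD), for 11 weeks. The Se_Ctr, Se_LD and Se_HD groups were exposed to selenium together with no mercury, the low dose and the high dose, respectively, and the amount of selenium was not given in the sources used here. The MeHg stock was mixed with cysteine and the Ctr feed held cysteine as well, so Ctr, LD and HD share this addition. Mice were young at the start and were housed one per cage. As a model, the groups cover 1 inbred strain, 1 sex and whole dissected hippocampus.

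Reads assigned to genes ranged from 5768208 to 11510521 per library, with a median of 9351470. The hippocampal marker list, which includes the dentate gyrus gene Prox1, summed to between 5438 and 9648 normalized counts in the 5 HD libraries and was present in every group. HD replicate 2 stood apart from the other HD libraries in several members, so the fold changes of members in HD against Ctr, HD against LD and Se_HD against HD that are printed below are given with and without it. A normalized count is the number of reads on a gene divided by the size factor of its library.

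At the RNA level, 1 of the 7 members was called in HD against Ctr, where 5.09% of all genes tested were called. This was Sparc, which was 1.66-fold higher in HD, and its values in HD lay above those of all 5 Se_HD mice. Sparcl1 and the 3 testicans were not called in any comparison. Smoc1 was called higher in Se_HD than in Se_Ctr, beside 2.06% of all genes tested, and lower in Se_Ctr than in Ctr, beside 1.30%. These 2 calls share the Se_Ctr libraries, and 0 genes had an adjusted p under 0.05 in either comparison in limma. Smoc2 was not called. A gene was called when both the F test over the groups of the fit and the contrast had an unadjusted p under 0.05 in limma.

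Members differed widely in abundance. Per kb of exon sequence, Sparcl1 was the most abundant in Ctr with 4724 ± 213 normalized counts (SD, n = 5). Spock2 followed with 1359 ± 109 per kb and Sparc with 637 ± 84.3 per kb. These 3 levels did not overlap between genes in Ctr, the Sparc libraries reaching at most 780 per kb and the Spock2 libraries at least 1189 per kb.

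Spock1 stood at 390 ± 65.9 normalized counts per kb in Ctr, Spock3 at 177 ± 17.6, Smoc2 at 61.7 ± 12.8 and Smoc1 at 22.8 ± 6.56 (SD, n = 5 each). The highest Spock1 library held 471 per kb, below the lowest Sparc library at 569 per kb, and the highest Spock3 library held 203 per kb, below the lowest Spock1 library at 310 per kb. The 2 Smoc genes did not overlap either, with 44.8 per kb in the lowest Smoc2 library and 33.6 per kb in the highest Smoc1 library. Smoc1 rested on 40 to 158 reads per library and Smoc2 on 98 to 489, compared with 1126 to 5873 for Sparc, so counting error weighs most on the Smoc genes.

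The proteins fall into 3 groups by sequence. Identity over aligned residues was 55.4% between SPARC and hevin, 56.2% between testican 1 and testican 3, 51.2% between testican 1 and testican 2, 48.5% between testican 2 and testican 3, and 57.1% between SMOC1 and SMOC2, in proteins translated from the annotated coding transcripts. SPARC had 302 residues and hevin 650, of which 18.2% and 21.4% were acidic (aspartate or glutamate). No stretch of 30 bases was shared between the transcripts of different members, except for 4 stretches between Smoc1 and Smoc2, so few reads could match the transcripts of more than 1 member.

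The first gene described is Sparc (ENSMUSG00000018593, minus strand of chromosome 11, 55208002 to 55233582, NCBIM37), a collagen-binding glycoprotein of glia and blood vessels in the brain. Sparc had 2627, 1916, 2119, 1961 and 2096 normalized counts in Ctr replicates 1 to 5. In LD the values were 1875, 2608, 2210, 2590 and 2610, and in HD they were 3345, 4793, 2544, 3393 and 3944. Of the 5 HD libraries, 4 lay above every Ctr and every LD library, and HD replicate 3 lay within their range.

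With selenium, the Sparc values were 2444, 1995, 1800, 1643 and 2106 in Se_Ctr and 2125, 2057, 2040, 2344 and 1900 in Se_LD. The 5 Se_HD libraries held 2328, 2228, 2217, 2393 and 2499 normalized counts. These Se_HD values were close together, and 1 of them was above all Se_Ctr values and 2 were above all Se_LD values. Every Se_HD value was below every HD value, the nearest being 2499 and 2544.

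**Figure D1:**
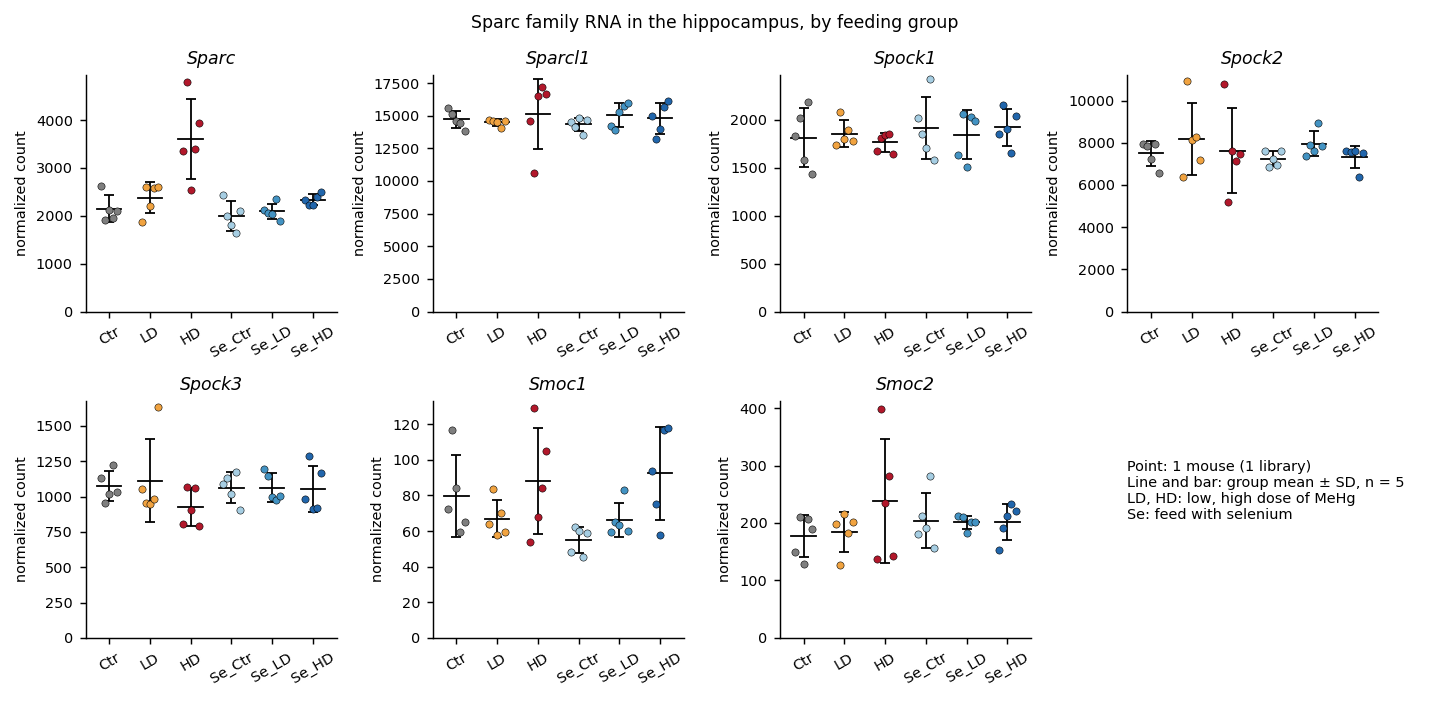
Normalized counts (y axis, linear, from 0) of the 7 members in the 6 feeding groups, with 1 point per mouse and lines and bars for the group mean ± SD (n = 5). Sparc averaged 3604 normalized counts in HD and between 1998 and 2379 in the other 5 groups, and the group means of Sparcl1 lay between 14332 and 15110.

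Group means of Sparc were 2144 ± 284 normalized counts in Ctr, 2379 ± 329 in LD and 3604 ± 831 in HD (SD, n = 5 each). In limma the log2 fold change of HD against Ctr was 0.73 ± 0.14 (SE), with a 95% confidence interval of 0.43 to 1.02 and an adjusted p of 0.0454 over 20031 genes. It was 1 of 26 genes with an adjusted p under 0.05, or 0.130% of those tested. The adjusted p depended on the analysis and ran from 0.00417 to 0.168 as single libraries were left out, exceeding 0.05 in 11 of 15 such fits. It was 0.0343 in edgeR and 0.00044 in DESeq2, and 0.00133 in limma with all 30 libraries in one fit. The log2 fold change stayed between 0.62 and 0.85 in these fits, the lowest being the value without HD replicate 2, at which the adjusted p was 0.099.

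Against LD, Sparc was 0.58 ± 0.14 (SE) higher in HD on the log2 scale, with an adjusted p of 0.138 in limma. The adjusted p was 0.0852 in edgeR and 0.0116 in DESeq2, and in limma it was 0.0123 with all 30 libraries in one fit. Without HD replicate 2 this difference was 0.47, with an adjusted p of 0.382, and without HD replicate 3 it was 0.70, with an adjusted p of 0.0221. Sparc was the 1 member called in HD against LD, where 4.49% of all genes tested were called. LD against Ctr gave a log2 fold change of 0.15 for Sparc, with a 95% interval from -0.15 to 0.44 and an adjusted p of 0.999. In that comparison 0 of the 7 members were called by limma, edgeR or DESeq2, none had an unadjusted contrast p under 0.05 in limma, and 1.46% of all genes tested were called. The interval of Sparc in LD leaves room for a change of either sign.

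In the selenium groups the high dose came with a smaller difference in Sparc. Se_HD averaged 2333 ± 118 normalized counts and Se_Ctr 1998 ± 306 (SD, n = 5 each), a log2 fold change of 0.24 ± 0.09 (SE) with a 95% interval of 0.06 to 0.41. The unadjusted p of the contrast met the call, and the adjusted p in limma was 1.0. Sparc and Smoc1 were the 2 members called in Se_HD against Se_Ctr, where 2.06% of all genes tested were called. The call of Sparc was lost with 4 other settings, edgeR among them, and without any of 6 libraries (Se_Ctr replicates 2, 3 and 4 and Se_HD replicates 1, 4 and 5), the log2 fold change then lying between 0.17 and 0.25.

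At the high dose, Sparc was lower with selenium than without it. Its log2 fold change in Se_HD against HD was -0.60 ± 0.12 (SE), with a 95% interval of -0.85 to -0.35 and an adjusted p of 0.0187 in limma over 21383 genes. Here 70 genes, or 0.327%, had an adjusted p under 0.05. Sparc was the 1 member called, and 3.59% of all genes tested were called. The HD and Se_HD libraries did not overlap for Sparc, as for 1.50% of all genes tested. Without HD replicate 2 the log2 fold change was -0.49 with an adjusted p of 0.122, and over the 30 fits that each left out 1 library the adjusted p ran from 0.000703 to 0.122. It exceeded 0.05 in 4 of them, those without HD replicate 2 or 5 or without Se_HD replicate 2 or 3.

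The difference between the high dose changes in the 2 diets was tested as an interaction. For Sparc, the log2 change with the high dose was lower by 0.49 with selenium than without it (95% interval of the difference -0.84 to -0.14). The contrast met the call, as it did for 2.38% of all genes tested, and Sparc was the 1 member called. The adjusted p in limma was 0.819 over all genes, and without HD replicate 2 the difference was -0.38. HD against Ctr, Se_HD against HD and the interaction share the HD libraries and are not separate evidence.

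Sparcl1 (ENSMUSG00000029309, minus strand of chromosome 5, 104508130 to 104543107, NCBIM37) encodes hevin, the synapse-promoting relative of SPARC. Its values were 15571, 15119, 14602, 14423 and 13843 normalized counts in Ctr and 14693, 14596, 14542, 14043 and 14602 in LD. HD replicates 1 to 5 held 14585, 10638, 16490, 17201 and 16636. Within HD, 3 libraries were above all Ctr libraries and replicate 2 was below all of them, the lowest Sparcl1 value of all 30 libraries.

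Selenium-fed mice had Sparcl1 values of 14484, 14171, 14860, 13497 and 14650 normalized counts in Se_Ctr. They had 14214, 13929, 15304, 15756 and 15999 in Se_LD and 14983, 13220, 14003, 15697 and 16102 in Se_HD. The 3 groups overlapped. The log2 fold change of Sparcl1 was 0.02 in HD against Ctr, with a 95% interval of -0.25 to 0.29 (0.14 without HD replicate 2), and 0.04 in Se_HD against Se_Ctr, with an interval of -0.11 to 0.20. Sparcl1 varied least of the members over all libraries, with a coefficient of variation of 8.29% compared with 27.5% for Sparc. An antisense gene, Gm16990, shares 201 exon bases with Sparcl1 and averaged 11.9 normalized counts, a small number beside the 14749 of Sparcl1.

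**Figure D2:**
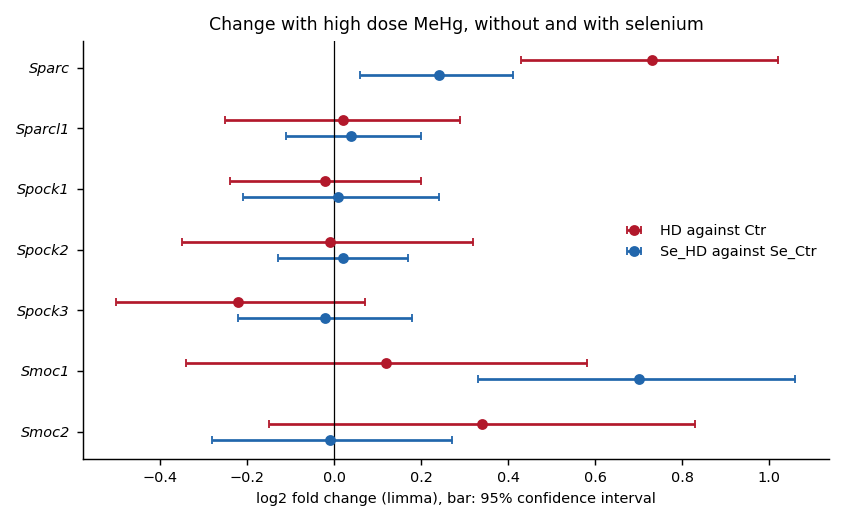
Log2 fold change (x axis) of each member in HD against Ctr and in Se_HD against Se_Ctr, with bars for the 95% confidence interval from limma (n = 5 mice per group). The interval of Sparc lies above 0 in both comparisons (0.43 to 1.02 and 0.06 to 0.41), and that of Smoc1 lies above 0 in Se_HD against Se_Ctr (0.33 to 1.06) and spans 0 in HD against Ctr (-0.34 to 0.58).

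Because SPARC and hevin act against each other at synapses, their reads were also set side by side within each library, where the size factor cancels. Sparc reads amounted to 12.7% to 16.9% of Sparcl1 reads in Ctr, with a median of 14.5%. In HD replicates 1 to 5 they amounted to 22.9%, 45.1%, 15.4%, 19.7% and 23.7%. Thus 4 of the 5 HD libraries were above every Ctr library and HD replicate 3 was within the Ctr range, and the value of 45.1% in HD replicate 2 combined the highest Sparc with the lowest Sparcl1 level.

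In LD, Sparc reads were between 12.8% and 18.4% of Sparcl1 reads, with a median of 17.9%. The medians were 14.1% in Se_Ctr, 14.8% in Se_LD and 15.5% in Se_HD, whose 5 libraries lay between 15.2% and 16.9%. The Se_Ctr libraries ran from 12.1% to 16.9%, and the Se_HD range overlapped those of Ctr, LD, Se_Ctr and HD. All 5 Se_HD libraries lay above every Se_LD library, which ran from 11.9% to 14.9%. The proportion was given as a description, since it reuses the Sparc values that were known when the family was selected.

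**Figure D3:**
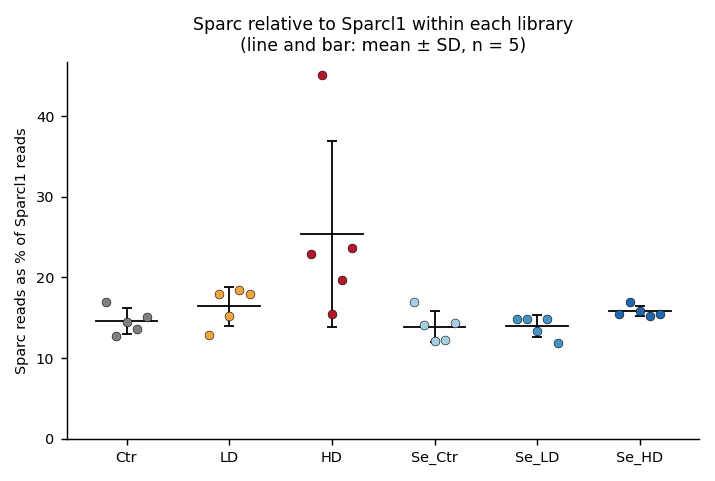
Sparc reads as a percentage of Sparcl1 reads in each library (y axis, from 0), by feeding group, with lines and bars for the mean ± SD (n = 5). The HD libraries range from 15.4% to 45.1%, and the libraries of the other groups stay between 11.9% and 18.4%.

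The testicans carry glycosaminoglycan chains and are known as inhibitors or modulators of membrane-type matrix metalloproteinases and cathepsin L. Spock2 (ENSMUSG00000058297, plus strand of chromosome 10, 59568967 to 59597946, NCBIM37) ranged from 6567 to 7949 normalized counts in Ctr. It held 6380, 10948, 8118, 8288 and 7193 in LD and 10770, 5172, 7597, 7144 and 7475 in HD. The spread in LD and HD exceeded that in Ctr, with HD replicate 1 high and HD replicate 2 the lowest of the 30 libraries, and the groups overlapped.

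In the selenium groups Spock2 ranged from 6866 to 7632 normalized counts in Se_Ctr, from 7387 to 8935 in Se_LD and from 6391 to 7629 in Se_HD. Its log2 fold change was -0.01 in HD against Ctr (95% interval -0.35 to 0.32), and this value was 0.12 without HD replicate 2. In Se_HD against Se_Ctr it was 0.02 (95% interval -0.13 to 0.17). The intervals allow no statement that Spock2 was equal between groups, only that a change beyond them was not measured.

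Spock1 (ENSMUSG00000056222, minus strand of chromosome 13, 57524451 to 58008948, NCBIM37) had 1833, 2016, 1583, 2187 and 1439 normalized counts in Ctr. It had 1679, 1812, 1846, 1854 and 1641 in HD, all of them inside the Ctr range. The log2 fold change was -0.02 in HD against Ctr (95% interval -0.24 to 0.20), -0.03 without HD replicate 2, and 0.01 in Se_HD against Se_Ctr (95% interval -0.21 to 0.24). Within groups, Spock1 was more variable in Ctr and Se_Ctr, at 16.9% and 17.1% coefficient of variation, than in HD at 5.62%.

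Spock3 (ENSMUSG00000054162, plus strand of chromosome 8, 65429806 to 65835900, NCBIM37) had 1133, 955, 1019, 1226 and 1032 normalized counts in Ctr and 807, 1070, 906, 1059 and 791 in HD. Although 3 HD libraries lay below all Ctr libraries, the other two lay within their range. The log2 fold change was -0.22 ± 0.14 (SE), with a 95% interval of -0.50 to 0.07 and an adjusted p of 0.739 in limma, and it was -0.27 without HD replicate 2. With selenium it was -0.02 (95% interval -0.22 to 0.18). LD replicate 5, at 1635 normalized counts, was the highest of all 30 libraries and far from the other LD libraries, which lay between 945 and 1050.

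SMOC1 is a secreted antagonist of BMP signalling that is needed for eye and limb development. Smoc1 (ENSMUSG00000021136, plus strand of chromosome 12, 82127795 to 82287401, NCBIM37) had 72.4, 117, 84.1, 59.7 and 65.2 normalized counts in Ctr. The HD libraries held 53.8, 129, 68.0, 84.4 and 105, and the LD libraries 63.8, 83.7, 57.8, 70.2 and 59.7. These 3 groups overlapped, and HD replicate 2 again was the highest of the 30 libraries.

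In Se_Ctr, Smoc1 had 48.4, 62.2, 59.8, 45.7 and 58.7 normalized counts, and in Se_LD it had 59.6, 65.2, 63.3, 82.8 and 60.2. The Se_HD libraries held 93.8, 75.4, 57.6, 117 and 118. Of these, 4 were above every Se_Ctr library, and Se_HD replicate 3 was within their range. The log2 fold change of Se_HD against Se_Ctr was 0.70 ± 0.17 (SE), with a 95% interval of 0.33 to 1.06, and the adjusted p in limma was 1.0. It ran from 0.60 to 0.85 over the 27 other settings and was called in each.

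Against Se_LD, Smoc1 was 0.43 higher in Se_HD on the log2 scale (95% interval 0.07 to 0.80), the 1 member called where 2.47% of all genes tested were called. Se_Ctr against Ctr gave -0.50 (95% interval -0.92 to -0.08), again the 1 member called, beside 1.30% of all genes tested. That call was lost without Ctr replicate 2, where the log2 fold change was -0.35, and without Se_Ctr replicate 4, where it was -0.44. The adjusted p of Smoc1 was 0.947 in the first and 1.0 in the second of these comparisons in limma. Se_HD against Se_Ctr and Se_Ctr against Ctr share the Se_Ctr libraries, where Smoc1 averaged 55.0 normalized counts, and are not separate evidence.

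In HD against Ctr the log2 fold change of Smoc1 was 0.12 (95% interval -0.34 to 0.58), and it was -0.04 without HD replicate 2. In Se_HD against HD it was 0.08 (95% interval -0.33 to 0.50), with an adjusted p of 0.96 in limma, and -0.07 without HD replicate 2. The interaction of high dose and selenium was 0.58 for Smoc1, with a 95% interval of -0.01 to 1.17 and an adjusted p of 0.997 in limma. A difference in the response of Smoc1 between the 2 diets was therefore not shown by this test. Without HD replicate 2 the same contrast was 0.73 and met the call, so this library decided on which side of the threshold it fell, as did 6 others that are given with the settings.

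Smoc2 (ENSMUSG00000023886, plus strand of chromosome 17, 14416513 to 14541797, NCBIM37), the second SMOC gene, had 149, 211, 128, 207 and 189 normalized counts in Ctr and 137, 399, 235, 281 and 143 in HD. HD replicates 2, 3 and 4 were above every Ctr library and the other two were within the Ctr range. The log2 fold change was 0.34 ± 0.24 (SE), with a 95% interval of -0.15 to 0.83 and an adjusted p of 0.776 in limma. It was 0.13 without HD replicate 2 and 0.51 without HD replicate 1, so its size rested on single libraries, and it was not called in either case. In Se_HD against Se_Ctr it was -0.01 (95% interval -0.28 to 0.27).

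In the 2 remaining comparisons within a dose or diet, 0 of the 7 members were called by limma. These were Se_LD against Se_Ctr, where 1.46% of all genes tested were called and where edgeR and DESeq2 called 0 members as well, and Se_LD against LD, where 0.730% of all genes tested were called. For Sparc the log2 fold change was 0.08 in the former (95% interval -0.10 to 0.25) and -0.18 in the latter (95% interval -0.42 to 0.07). In both, no member had an unadjusted contrast p under 0.05.

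Cell type markers were examined beside Sparc, since in bulk tissue more cells of a type and more RNA per cell cannot be told apart. Over all genes tested, 5.09% were called in HD against Ctr, 2.06% in Se_HD against Se_Ctr and 3.59% in Se_HD against HD. The microglial list of 10 genes, among them Csf1r, Cx3cr1, P2ry12, C1qa and C1qb, summed to between 2693 and 2972 normalized counts in Ctr and between 3400 and 7983 in HD. All 10 were called higher in HD than in Ctr, with log2 fold changes from 0.36 for P2ry12 to 1.71 for C1qb, and 9 of 10 without HD replicate 2. In Se_HD the sum ran from 2827 to 3267, 9 of the 10 genes were called lower than in HD, and 0 of 10 were called in Se_HD against Se_Ctr.

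The astrocyte list of 8 genes summed to between 49520 and 58936 normalized counts in Ctr, between 59719 and 92376 in HD and between 50460 and 53271 in Se_HD. Gfap made up much of the difference between Ctr and HD, with means of 1748 and 12354 beside list means of 53301 and 71400. Of the 8 genes 4 were called higher in HD than in Ctr, with log2 fold changes of 2.39 for Gfap, the intermediate filament of reactive astrocytes, 0.97 for the water channel gene Aqp4, 0.49 for Aldh1l1 and 0.32 for S100b. Without HD replicate 2, 3 were called, namely Gfap (1.93), Aqp4 (0.55) and Aldoc (0.34). In Se_HD against HD, 5 of the 8 were called lower (4 without HD replicate 2), and in Se_HD against Se_Ctr Gfap was the 1 gene called, with a log2 fold change of 0.51. When the HD libraries were ordered by Sparc, the order was that of the microglial sum and of the astrocyte sum: replicate 3, 1, 4, 5 and 2. Gfap alone had the same order, with 4080, 5140, 7280, 12400 and 32800 normalized counts in these libraries. The Se_Ctr libraries did not share this match. There replicate 4 had the highest microglial sum (3264), the highest astrocyte sum (54606) and the lowest Sparc (1643). The part of either cell type in the Sparc values was not tested.

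Vessels and fibroblasts also express Sparc. Of the 8 endothelial genes, 0 were called in HD against Ctr, with sums of 2437 to 2793 normalized counts in Ctr and 2190 to 2849 in HD. The 6 mural genes gave 0 calls, with sums of 2091 to 2435 and 1964 to 2536. The list of meninges and fibroblasts gave 0 calls of 7, with sums of 1786 to 5344 in Ctr and 3207 to 6718 in HD. Within these 3 lists, the sums in HD overlapped those in Ctr. The choroid plexus list gave 0 calls of 7 in limma in HD against Ctr and in Se_HD against Se_Ctr, with median log2 fold changes of 1.41 and 0.74. Its sum ran from 810 to 30892 normalized counts in Ctr (median 10781) and from 6941 to 29059 in HD (median 26778), and from 274 to 37227 over the 30 libraries. The part of this tissue in the values of the members was not tested.

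**Figure D4:**
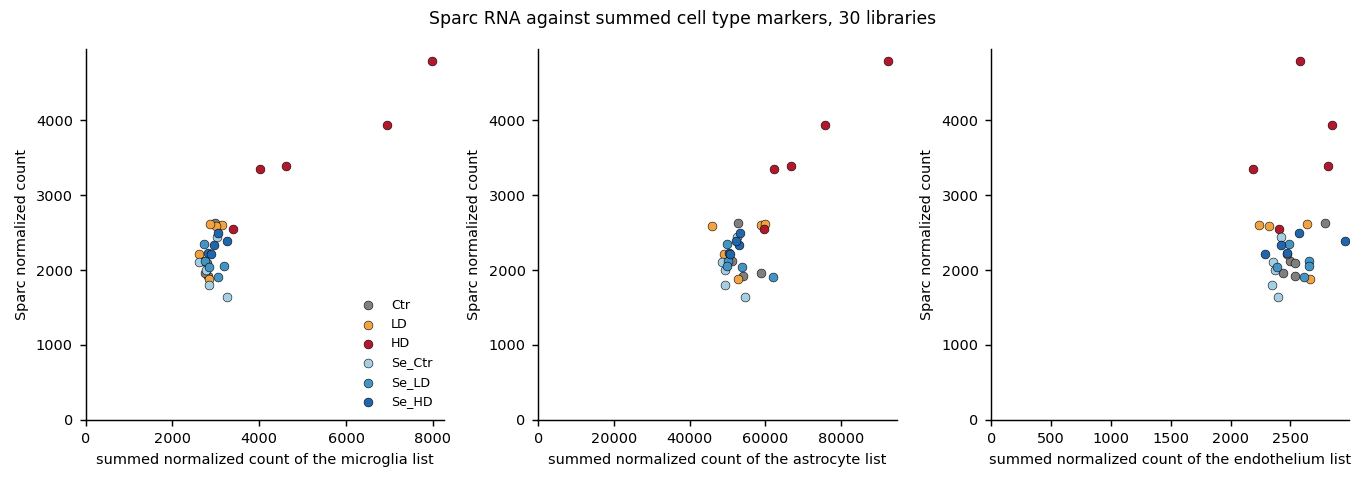
Sparc normalized counts (y axis) against the summed normalized counts (x axis) of the microglial, astrocyte and endothelial marker lists in 30 libraries, with 1 point per library and both axes linear from 0. The HD libraries extend to a microglial sum of 7983 and an astrocyte sum of 92376 at the highest Sparc value, 4793, whereas their endothelial sums stay between 2190 and 2849. The astrocyte sum at that Sparc value includes 32800 normalized counts of Gfap.

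In Se_HD against Se_Ctr, 2.06% of all genes tested were called and 0 had an adjusted p under 0.05 in limma. There Sparc and Smoc1 were called, and 4 of the 7 genes of meninges and fibroblasts were also called higher, namely Col1a1, Col1a2, Lum and Slc13a4. That list summed to between 1829 and 4495 normalized counts in Se_Ctr and between 4859 and 7165 in Se_HD. These ranges did not overlap, but most of the sum was Igf2, which held 1400 to 3450 in Se_Ctr and 3120 to 5470 in Se_HD and was not called (log2 fold change 0.94). Of the vessel lists, the endothelial genes Flt1 (0.16) and Slc2a1 (0.30) and the mural gene Anpep (0.84) were called higher as well, 2 of 8 and 1 of 6. Whether these cells contributed to the values of Sparc and Smoc1 in Se_HD was not tested.

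Of the 6 inhibitory neuron markers, 2 were called lower in HD than in Ctr, namely Gad1 (-0.45) and Pvalb (-0.59), and 1, Gad1, without HD replicate 2. Their sum ran from 5043 to 6095 normalized counts in Ctr, from 3950 to 4970 in HD and from 5112 to 6308 in Se_HD, so that HD overlapped neither of the other two. In Se_HD against HD 1 of the 6 was called higher, again Gad1 (0.42). Whether this shift bears on the values of the members was not tested.

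In HD replicate 2 the 5 excitatory neuron markers summed to 31699 normalized counts, below the other HD libraries, and the microglial and astrocyte sums were the highest of the group. Its oligodendrocyte sum, 27012, was the lowest of all 30 libraries and its striatum sum, 356, the highest, beside 35012 to 44337 and 211 to 257 in the other HD libraries. Its thalamus sum, 517, was also the lowest of the 30. The same library had the highest Sparc, Smoc1 and Smoc2 and the lowest Sparcl1 and Spock2 of all 30 libraries. The part of its composition in these values was not tested.

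Genes that work with the family were followed in lists. Of 16 collagens, laminins and other matrix genes laid down with SPARC, 0 were called higher and 1 lower in HD than in Ctr. Over all genes tested, 5.09% were called. The lower one was Col5a1, with a log2 fold change of -0.62. The median log2 fold change of the list was -0.02, beside 0.01 over all genes tested. In Se_HD against Se_Ctr, 2.06% of all genes tested were called and 0 had an adjusted p under 0.05 in limma. There 4 of the 16 were called higher, namely the fibrillar collagen genes Col1a1 (0.71), Col1a2 (0.84) and Col3a1 (1.04) and the basement membrane gene Nid1 (0.47). The list median was 0.21, beside -0.01 over all genes tested.

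Among 18 other matricellular genes, 4 were called higher and 1 lower in HD than in Ctr, where 5.09% of all genes tested were called. Thbs4, a thrombospondin, had 34.6 ± 8.77 normalized counts in Ctr and 75.9 ± 43.7 in HD (SD, n = 5). HD replicate 2 held 153 and the other HD libraries between 48.3 and 68.0, and the log2 fold change was 1.00 with that library and 0.72 without it. Spp1, which encodes osteopontin, held 24.1, 34.0, 61.4, 20.3 and 19.2 in Ctr and 56.5, 2820, 33.2, 68.3 and 242 in HD, so that its mean in HD rested on HD replicate 2. Its log2 fold change was 2.39 with that library and 1.35 without it, and it was called both ways. Wisp1 and Wisp2, of the CCN family, were called higher at levels below 10 normalized counts, and Tnxb, encoding tenascin X, was called lower with a log2 fold change of -0.52. Without HD replicate 2, 3 of 17 were called higher (Thbs4, Spp1 and Wisp1) and 0 lower. In Se_HD against Se_Ctr, 3 of 17 were called higher, beside 2.06% of all genes tested, namely Thbs1 (0.80), Spp1 (0.85) and Fbln1 (0.89).

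Of 10 receptors and synaptic partners of SPARC and hevin, 4 were called higher in HD than in Ctr, beside 5.09% of all genes tested. Without HD replicate 2, 3 of the 10 were called higher. Stab1, a scavenger receptor that takes up SPARC, held 72.4, 97.0, 94.5, 96.9 and 75.4 normalized counts in Ctr and 102, 203, 93.3, 170 and 166 in HD. Itgb3, an integrin subunit, held 26.6, 18.7, 24.6, 14.6 and 17.9 in Ctr and 45.7, 49.8, 31.4, 44.2 and 31.7 in HD, without overlap, as for 1.71% of all genes tested. The LD libraries held 39.7, 39.9, 28.9, 24.7 and 32.4, of which 4 were above every Ctr library, and Itgb3 was the 1 gene of the list called in LD against Ctr (0.68). The other two called in HD were Vcam1, with a log2 fold change of 0.60 (0.34 without HD replicate 2), and Itgb5, with 0.42 (0.30 and not called without it). In Se_HD against HD 3 of the 10 were called lower, beside 3.59% of all genes tested. In Se_HD against Se_Ctr 1 was called higher, namely Vcam1 (0.42), beside 2.06%.

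In HD against Ctr, where 5.09% of all genes tested were called, Tgfb1 was the 1 gene called of 7 other synaptogenic factors of astrocytes. It held 18.1, 25.5, 17.0, 12.4 and 21.7 normalized counts in Ctr and 30.9, 45.7, 26.2, 33.0 and 45.0 in HD. The ranges lay close together without overlap, as for 1.71% of all genes tested, the highest Ctr value being 25.5 and the lowest HD value 26.2. The log2 fold change was 0.90, with an adjusted p of 0.182 in limma. Ctsb (0.35) and Ctsl (0.44), encoding cathepsins B and L, were the 2 called higher among 12 proteases and inhibitors, of which 0 of 11 were called without HD replicate 2 (0.20 and 0.28). In Se_HD against Se_Ctr, 2.06% of all genes tested were called and 0 had an adjusted p under 0.05 in limma. There 1 of the 7 synaptogenic factors was called higher, Thbs1 (0.80), which is also on the matricellular list, and 1 lower, Bdnf (-0.24), a neurotrophin gene. Of the proteases and inhibitors 1 of 11 was called higher there, Timp3 (0.38), a metalloproteinase inhibitor. Of 13 genes of the BMP axis 0 were called in HD against Ctr by limma, and in Se_HD against Se_Ctr 4 were called higher, namely Bmp4 (0.69), Bmp6 (0.64), Bmp7 (0.74) and Bmpr2 (0.33). Se_HD replicate 4 had the highest Bmp4 and Bmp7 values, 44.4 and 183 normalized counts.

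The low dose gave few calls in these lists. In LD against Ctr, where 1.46% of all genes tested were called, the called genes of the 6 lists were Itgb3, higher, and Col5a1 (-0.56) of the 16 collagens and laminins and Fbln5 (-0.68) of the 18 matricellular genes, both lower. Of the marker lists, 1 of 5 thalamus genes was called higher, Calb2 (0.59), and no gene of the others was called by limma. The adjusted p in limma was 0.999 for each of these 4 genes, and Fbln5 and Calb2 were named after their values were seen.

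Variation among mice of the same group was described by the deviations from the group means on the log2 scale over 30 libraries. Of the 21 pairs of members, Spock2 and Smoc2 had the strongest relation, with Pearson's r of -0.68 (permutation p = 0.00224, adjusted p = 0.047 over the 21 pairs) and Spearman's rho of -0.50 (adjusted permutation p = 0.218). Without the 2 libraries farthest from the Spock2 median r was -0.44, so the relation rests in part on those libraries. For Sparc and Sparcl1, r was -0.30 (permutation p = 0.382, adjusted p = 0.668) and rho was 0.02 (permutation p = 0.941). Their r was 0.06 without HD replicate 2. No other pair had an adjusted p under 0.05.

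The genes whose deviations were most like those of each member were searched among the 11082 genes that averaged 50 normalized counts or more. Nearest to Sparc were Lig1 (r = 0.77, DNA ligase 1), Anxa5 (r = 0.77, annexin A5) and Rell1 (r = 0.74), over 30 libraries. Sparcl1 was nearest to Appl2 (r = 0.90), Adhfe1 and Echdc2, Spock1 to Frzb (r = 0.90), Pvrl3 and Cpne4, and Spock2 to Lhfpl4, 5730409E04Rik and Mapt (r = 0.91 each). Spock3 was nearest to Edil3 (r = 0.84), Fam134b and Lrch2. For Smoc1 the nearest were Slc13a3 (r = 0.76), Atp6v0e and Inpp5d, and for Smoc2 they were Stxbp3a, Anapc1 and Iars2 (r = 0.80 each). Of these genes, Anxa5 and Inpp5d were called higher in HD than in Ctr, with log2 fold changes of 0.48 and 0.57. The libraries differed in depth and in the sums of region markers, which ran from 517 to 2168 normalized counts for the thalamus list, and the part of these differences in the correlations was not tested. Without HD replicate 2 the r of Sparcl1 with Echdc2 was 0.55 instead of 0.81, while that of Spock1 with Frzb was 0.91.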

How the data were processed

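Per the labels, TruSeq Stranded mRNA libraries were read as single ends on a NextSeq. Reads were processed with Trim Galore 0.4.2, HISAT2, featureCounts and DESeq2 on NCBIM37, and the strand setting of the counting was not given in the sources used here. The authors deposited counts divided by DESeq2 size factors, a normalized signal per gene. Whole reads were recovered for 100% of values (tolerance 0.01 reads). Symbols, coordinates and proteins came from the GENCODE annotation of the same build, which named 21326 of 21412 identifiers. Groups came from the labels, and replicates are separate mice numbered in accession order. The main test was limma 3.58.1 in R 4.3.3 with a variance trend on log2(normalized count + 1), for genes with a sum of at least 10, fitted over 15 libraries within a diet and over all 30 across diets. P-values were adjusted by Benjamini-Hochberg over all genes tested. A fold change on this scale understates low genes. Correlations used two-sided tests with 100000 permutations within groups. Tests were checked on simulated data. The members and lists were chosen with earlier results of these data known. Named genes were the members, their 3 nearest genes, list genes called at the high dose in either diet (the microglial list by examples), and genes that a sentence on a list's level needed (Igf2, Prox1); those called only in another comparison were named after their values were seen. Alternatives were other pseudocounts, filters and scalings, edgeR 4.0.16, DESeq2 1.42.0, a replicate block and leaving out libraries. Comparisons of Se_HD with HD, adjusted p-values of Sparc and the settings for the correlations were added after seeing the data.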

Additional observations from a re-analysis of the deposited data

Results flagged for a closer look

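In 5 of the 42 combinations of a member and a group, 1 of the 5 libraries lay far from the other four, its gap to the nearest library taking more than 0.71 of the range of the group (Dixon's 95% critical value). Chance flags about 1 in 20 groups, or 2.1 of 42. The gap took 0.714 of the range for Sparc in Ctr, where replicate 1 was the highest. It took 0.768 for Sparcl1 in LD, where replicate 4 was the lowest, and 0.904 for Spock2 in Se_HD, where replicate 4 was the lowest. For Spock3 in LD, with replicate 5 highest, it took 0.848, and for Smoc1 in Se_LD, with replicate 4 highest, it took 0.759. The interaction of high dose and selenium met the call for Sparc, as for 2.38% of all genes tested. It was -0.49 on the log2 scale (unadjusted p 0.00741 and adjusted p 0.819 in limma) and -0.38 without HD replicate 2. Its adjusted p was over 0.05 in all 30 fits that each left out 1 library. Sparc was lower in 5 of 5 Se_HD libraries than in every HD library, and 1.50% of all genes tested had no overlap between these groups.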

How the results depend on the processing

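Sparc met the call in HD against Ctr and in Se_HD against HD under every alternative run, with log2 fold changes of 0.73 to 0.75 and -0.63 to -0.59 apart from left-out libraries. Its adjusted p in HD against Ctr was 0.0564 and 0.0662 with pseudocounts of 0.1 and 10, 0.0648 after quantile normalization and 0.157 without the variance trend, but 0.0343 with edgeR, 0.00044 with DESeq2 and 0.00133 with all 30 libraries in one fit, and ran from 0.00417 to 0.168 as single libraries were left out. It was over 0.05 without Ctr replicate 2, 3, 4 or 5, LD replicate 2, 3, 4 or 5, or HD replicate 2, 4 or 5. In Se_HD against HD the adjusted p was 0.0626 without the trend and ran from 0.000703 to 0.122 with a library left out. The members called in Se_HD against Se_Ctr were 1 after quantile normalization, without the trend, with edgeR and with all 30 libraries in one fit, and 1 to 2 with a library left out. Those called were 0 to 1 in Se_Ctr against Ctr with a library left out. In the interaction they were 2 after quantile normalization and 1 to 2 with a library left out, the second being Smoc1 (without Ctr replicate 4 or 5, HD replicate 2 or 5, Se_Ctr replicate 2, or Se_HD replicate 2 or 3). Pairs of members with an adjusted p under 0.05 were 0 to 1 as libraries were left out, Spock2 with Smoc2 then having r between -0.73 and -0.54. Values near 0 changed sign: Spock2 in HD against Ctr was 0.02 with edgeR and with DESeq2. With a library left out, HD against Ctr ran from -0.03 to 0.14 for Sparcl1, -0.10 to 0.05 for Spock1, -0.15 to 0.12 for Spock2, -0.04 to 0.27 for Smoc1 and, without a change of sign, 0.13 to 0.51 for Smoc2. Se_HD against Se_Ctr ran from -0.05 to 0.10 for Spock1, 0.00 to 0.07 for Spock2, -0.10 to 0.03 for Spock3 and -0.09 to 0.12 for Smoc2, and Se_HD against HD from -0.07 to 0.24 for Smoc1. The cause of these shifts was not tested. Over all genes, calls in HD against Ctr were 1671 with the contrast alone compared with 1019. With the replicate block of 6 consecutive library numbers, the adjusted p of Sparc in HD against Ctr was 0.0429 and no call of a member changed; the labels do not say that such a set is a batch. Depth limits Smoc1 most.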
